A study of Mus musculus with 6 samples.

Results

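The 33 genes described here encode CD40, the related B cell receptors TACI, BAFF receptor, BCMA and FAS, and the adaptors, kinases, transcription factor subunits, inhibitors and target genes of NF-kB signalling. They were chosen by name, as the rows whose GENCODE M21 symbol is on a list of CD40 and NF-kB pathway genes, and make up 33 of the 54838 gene identifiers counted. All 33 were found, 1 identifier each, and all 33 were among the 15136 genes that passed the filter on low counts.

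RNA was measured by poly A selected sequencing of mouse splenic B cells in 6 libraries, 3 given the solvent DMSO and 3 given 1 µM Cpd10, a compound that the labels call a FOXO1 inhibitor, FOXO1 being a transcription factor. Naive B cells had been sorted, over 2 separate experiments, from spleens of 10 males aged 3 months at 9 days after immunisation with sheep red blood cells, and the cells were combined before plating. Both groups received interleukin 4 (80 ng/ml) and an anti-CD40 antibody (5 µg/ml) for 5 days, so CD40 was engaged in the control cultures too, and solvent or compound was present for 48 h, from day 3 to day 5. The sources used here give neither the strain nor what libraries of the same letter (A, B, C) share. Because the cells were pooled, the p-values below reflect library-to-library spread alone, and that spread may be technical. Values of the 3 libraries of a group are given in the order A, B, C.

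CD40 has no enzyme activity of its own and signals by recruiting TRAF adaptor proteins to its tail. In resting B cells a complex of TRAF2, TRAF3 and the ubiquitin ligases cIAP1 and cIAP2 keeps the kinase NIK at a low level. Engaged CD40 draws that complex away, NIK then activates IKKα, and the NF-kB2 precursor is processed to the form that pairs with RelB, while a parallel, faster branch uses the full IKK complex to degrade IκB proteins and release dimers of NF-kB1 with RelA or c-Rel. Many of the inhibitors and adaptors of the pathway are themselves NF-kB target genes, which closes feedback loops.

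Library totals ranged from 36873204 to 44859930 counts, and levels are given as CPM, counts scaled to a common library total after TMM normalisation. The libraries differed from each other in a way that crossed the treatment: the first principal component of all genes (46.3% of their variance) parted Cpd10 A, DMSO A and DMSO C from DMSO B, Cpd10 B and Cpd10 C, and the second (22.7%) parted the treatments. These triplets are called set 1 and set 2 here. They are not in the labels and were read from these counts, where 9 genes had at most 3 counts in every library of one triplet and at least 50 in every library of the other. Among the markers of other cell types, 1 of 10 macrophage and monocyte markers was called higher with Cpd10, Cd68, and their summed level was 29.5 to 43.8 CPM in DMSO and 56.9 to 63.8 with Cpd10, with Csf1r, Lyz2 and Cd14 at or near 0 and C1qa at 0. Adgre1, of the same list, had lower values with Cpd10, at 13.9, 21.1 and 20.5 CPM in DMSO and 8.77, 14.2 and 13.0 with Cpd10 (adjusted p = 0.529 in edgeR with group alone, 0.0252 with the library set as a term). Of 12 T cell markers 5 were tested, all with fold changes below 0. With group alone edgeR called 0 of them, with 3 at an unadjusted p under 0.05, while Lck and Cd2 were called lower by DESeq2, and Lck, Cd2 and Thy1 by edgeR with the set as a term. The sum of the list, mostly Thy1 and Lck, ran from 264 to 489 CPM in DMSO and from 197 to 300 with Cpd10, with Cd3e, Cd3d, Cd3g, Cd4, Cd8a, Trbc1 and Trbc2 at or near 0. Dendritic, NK, and fibroblast and endothelial markers summed to at most 103, 22.7 and 20.8 CPM in any library. Of these, Eomes (NK, 1.79 to 2.21 CPM in DMSO and 0.213 to 0.431 with Cpd10) and Pecam1 (endothelial, 10.2 to 19.5 and 4.10 to 5.83) were called lower by DESeq2 and by edgeR with the set as a term, not by edgeR with group alone. The 8 B cell markers summed to 11144 to 23554 CPM in DMSO and 11667 to 16832 with Cpd10. Over all genes edgeR called 0.370% with group alone and 3.96% with the set as a term, and DESeq2 called 2.00%. With group alone 8.39% had an unadjusted p under 0.05 in edgeR. The part of the cell type markers in the results below was not tested. In RNA from a whole culture, fewer cells of a type and less RNA per cell cannot be told apart.

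Where the RefSeq tables held a promoter for them, the pathway's own genes often carried the letters of a κB element, the DNA word that NF-kB dimers bind. The searched forms were GGNNTTTCC and GGGNNTTCC, which can overlap each other, on both strands, in windows from 250 bases before to 50 bases after each annotated start (RefSeq, build GRCm38.p6). Of the 28 members with a window, 15 (53.6%) held at least 1 of these forms, whereas 9.83% of all 32851 windows and 11.1% of all 27025 genes with a window did. The members were chosen by name and include known NF-kB target genes, so a higher share among them follows in part from that choice. The examples below show the stretches of pathway genes of different roles, 5′ to 3′ on the gene's strand, with the matching letters in capitals.
Nfkbia, first match, chr12:55492807-55492835, minus strand: ctggtcgggaGGACTTTCCagccactcag
Nfkbia, other match, chr12:55492658-55492686, minus strand: tgactggcttGGAAATTCCccgcgcctga
Nfkbie, chr17:45555585-45555613, plus strand: cagcaaacagGGGGATTCCggaggggcgg
Nfkb2, chr19:46304688-46304717, plus strand: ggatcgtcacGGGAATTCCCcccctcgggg
Rel, chr11:23771042-23771070, minus strand: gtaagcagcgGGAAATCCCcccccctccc
Tnfaip3, chr10:19015416-19015444, minus strand: tcacgtgactGGAATTTCCatcGGAAATC
Tnip1, chr11:54962978-54963007, minus strand: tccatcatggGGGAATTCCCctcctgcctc
Traf3, chr12:111166351-111166379, plus strand: gcggcccgcgGGGATTTCCagcgcgcgag
Icam1, chr9:21015777-21015805, plus strand: acttcagtttGGAAATTCCtagatcgcag
Birc2, chr9:7837269-7837297, minus strand: atcaaagtccGGAACGCCCagcggaggca
Nfkb2 and Tnip1 share the same 10 letters, GGGAATTCCC, which read alike on both strands. The run of Tnfaip3 also holds the beginning of a match that follows it. The stretch printed for Birc2 lies at positions -240 to -212 from its start, and its letters match GGGNNTTCC alone, read on the other strand. No member with a window held the forkhead letters GTAAACA, a core recognised by FOXO proteins, on either strand, and 3.65% of all windows did; that says only that these letters are not in these windows. A match is a run of letters and not a measured binding site, and promoters of Cd40, Nfkb1, Relb, Ikbkb and Nfkbiz were not analysed here.

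With group as the only term, edgeR showed no change past the threshold between Cpd10 and DMSO among the 33 genes, and DESeq2 showed 1. edgeR's quasi-likelihood test called 0 of 33 at an adjusted p under 0.05, against 56 of 15136 genes (0.370%). At an unadjusted p under 0.05 it gave 3 of 33 (9.09%), with Birc2 higher and Map3k14 and Nfkbia lower, against 8.39% of all genes. DESeq2 called 1 of 33, Birc2, against 356 of 17782 genes (2.00%). The median log2 fold change of the 33 genes was -0.02, with 13 above 0 and 20 below, and that of all genes tested was -0.0012. All values of a gene with Cpd10 lay outside its DMSO range in 6 of 33 (18.2%), above it for Birc2, Birc3, Nfkb1 and Tnip1 and below it for Map3k14 and Nfkbia, while 14.6% of all genes had such groups. These shares of members were near those of all genes.

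With the library set as a second term, edgeR called 2 of 33 genes, Birc2 higher and Map3k14 lower, against 599 of 15136 genes (3.96%). Because the sets were read from the same counts, this fit is exploratory. The changes were bounded for most members: in the fit with group alone, the 95% interval of the fold change lay between 2-fold lower and 2-fold higher for 28 of 33 genes (60.4% of all genes) and within 1.5-fold for 20 of 33 (41.5% of all genes).

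**Figure D1:**
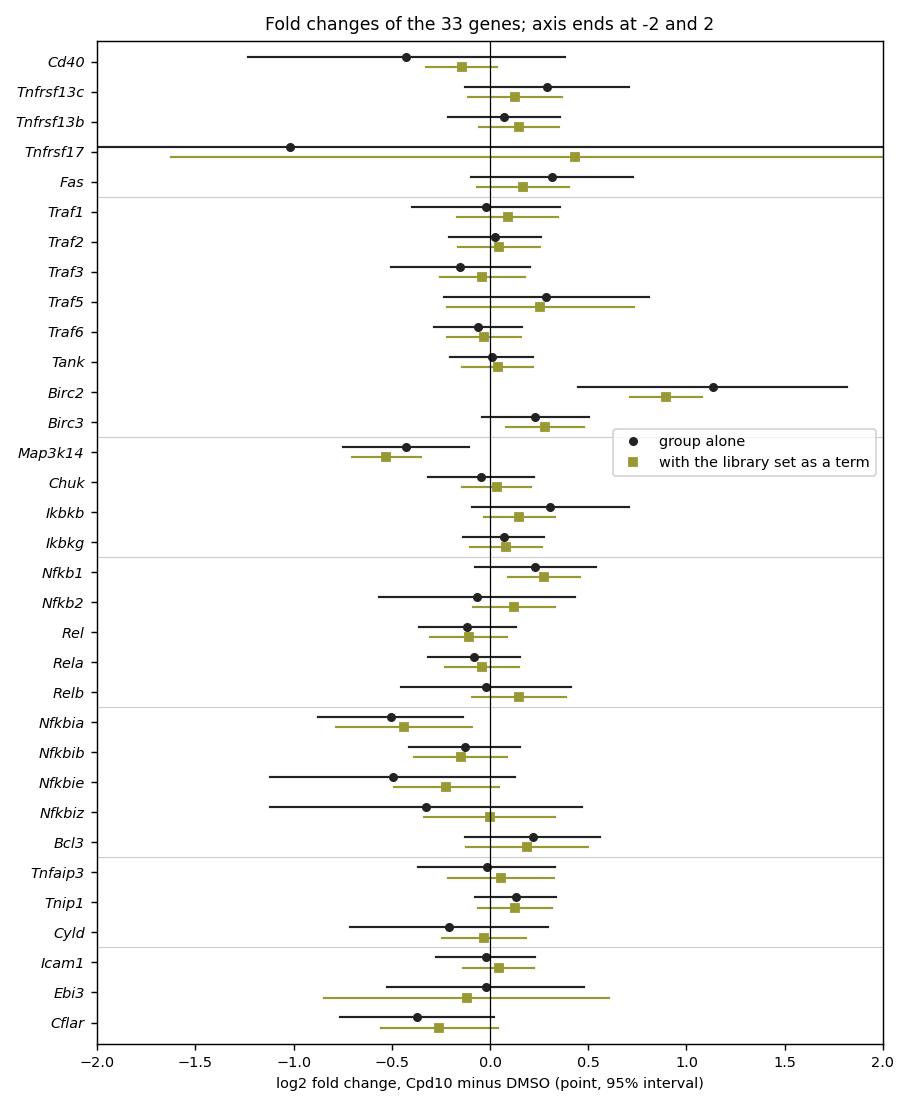
The log2 fold change, Cpd10 minus DMSO, of each of the 33 genes with its 95% interval, from edgeR with group alone (black circles) and with the library set as a second term (olive squares), ordered by role with grey lines between roles; the interval of Tnfrsf17 runs past the axis. Birc2 stands to the right of 0 and Map3k14 and Nfkbia to the left in both fits, and most other intervals cross 0.

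The level of the pathway's genes, scaled to CPM per kilobase of annotated exon, spanned a wide range in the DMSO cultures. Highest on that scale were the inhibitor Nfkbia, at 129 ± 26.6 (SD, n = 3), and the precursor gene Nfkb2, at 110 ± 28.2, followed by Nfkb1, at 86.7 ± 4.29, and the BAFF receptor gene Tnfrsf13c, at 82.3 ± 6.42. Neighbours among these 4 did not differ beyond their spread. Among the subunits, Rel, which encodes c-Rel, had a length-scaled level of 46.4 ± 4.44 in DMSO, Rela 36.5 ± 3.48 and Relb 13.9 ± 3.29. At the low end were the IκB-like gene Nfkbiz, at 3.14 ± 1.11, the adaptor Traf5, at 3.39 ± 0.928, and Tnfrsf17, at 1.46 ± 1.75. The scaling uses the union of annotated exons, which is long for Ikbkb (19078 bases) and for Nfkb1, Cyld and Cflar, and this lowers their values.

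**Figure D2:**
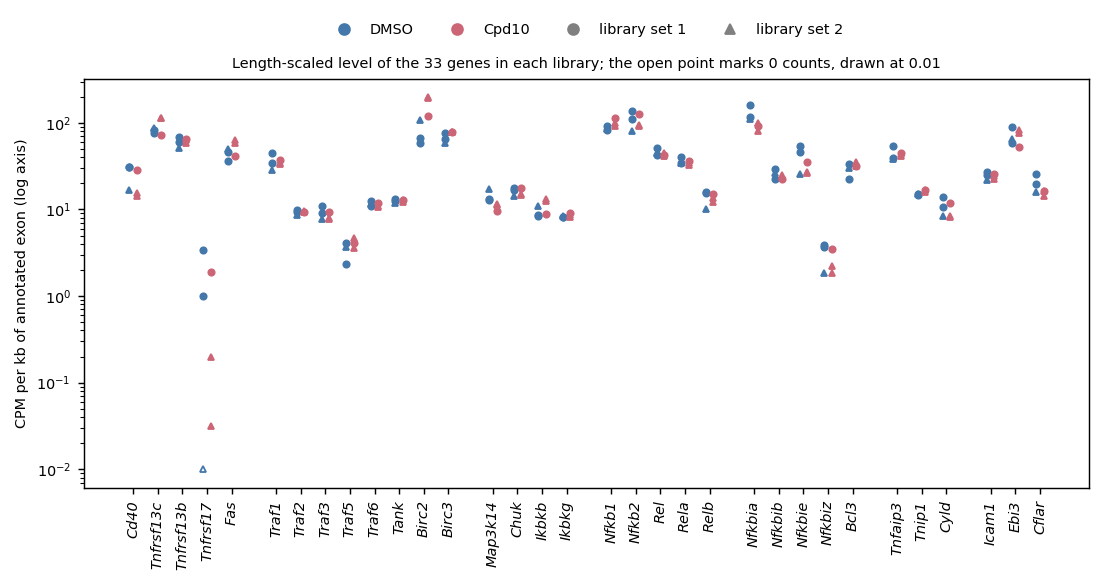
Length-scaled level (CPM per kilobase of annotated exon, log axis) of the 33 genes in each of the 6 libraries, with DMSO in blue and Cpd10 in red, circles for set 1 and triangles for set 2. Most genes keep within a narrow band across libraries, the Cpd10 points of Birc2 lie above its DMSO points, and Tnfrsf17 varies between libraries of either group.

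The receptors showed no called change. Cd40 (chromosome 2, 165055627 to 165072948, plus strand) was at 106, 57.8 and 105 CPM in DMSO and at 98.0, 48.9 and 52.5 with Cpd10. The groups overlapped, and the low libraries were the 3 of set 2, at 48.9 to 57.8 CPM, against 98.0 to 106 in set 1. Its log2 fold change was -0.43 (SE 0.34; 95% interval -1.24 to 0.38; edgeR adjusted p = 0.836) with group alone and -0.14 with the set as a term. Tnfrsf13c, the BAFF receptor, gave 0.29 on the log2 scale (adjusted p = 0.760 in edgeR), Fas, the death receptor that CD40 signalling induces, 0.32 (0.736) and Tnfrsf13b, TACI, 0.07 (0.926), and all 3 overlapped between groups. Tnfrsf17, which encodes the plasma cell receptor BCMA, was barely present, at 0.806, 0 and 2.77 CPM in DMSO and 1.56, 0.0254 and 0.16 with Cpd10, and its log2 fold change of -1.02 had an interval of -4.93 to 2.90. The plasma cell gene Sdc1 was high in the same libraries as Tnfrsf17, at 39.2, 10.7 and 87.7 CPM in DMSO and 37.7, 7.41 and 6.87 with Cpd10, and the 8 plasma cell markers summed to 3237 to 5472 CPM in DMSO and 3637 to 3914 with Cpd10, with 0 called by edgeR with group alone or by DESeq2, 0 at an unadjusted p under 0.05, and 1, Irf4, called higher by edgeR with the set as a term; their part in the Tnfrsf17 values was not tested.

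The ligase gene Birc2 had the largest fitted difference of the 33. Birc2 (chromosome 9, 7818227 to 7837064, minus strand) encodes cIAP1, which ubiquitinates NIK and receptor-bound kinases. It was at 266, 499 and 304 CPM in DMSO and at 548, 895 and 901 with Cpd10. The lowest Cpd10 value lay above the highest DMSO value, although DMSO B and Cpd10 A came close to each other, and within each set Cpd10 was higher. The log2 fold change was 1.13 (SE 0.29; 95% interval 0.45 to 1.82), a 2.19-fold difference, and it missed the threshold with group alone (edgeR adjusted p = 0.272). DESeq2 gave 1.14 with an adjusted p of 0.00113. With the set as a term it was 0.90 (SE 0.084; edgeR adjusted p = 4.50e-05), a 1.86-fold difference, and the differences within the sets were 0.94 and 0.85 on the log2 scale. Without DMSO B the edgeR value with group alone was 1.45 (adjusted p = 0.0611), and the lowest value without 1 library was 0.97, without DMSO A. Over the 11 alternatives to edgeR with group alone, the adjusted p of Birc2 reached 0.756 at its highest, in an edgeR fit.

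Birc3, the neighbouring paralogue (chromosome 9, 7848699 to 7873186, minus strand), encodes cIAP2 and is a classical NF-kB target. Its CPM was 329, 296 and 381 in DMSO and 394, 388 and 397 with Cpd10, so that all Cpd10 libraries were above all DMSO libraries by a small margin. The log2 fold change was 0.23 (SE 0.12; edgeR adjusted p = 0.695) with group alone and 0.28 (edgeR adjusted p = 0.133) with the set as a term; in the latter fit it passed the threshold only when DMSO C was left out, at 0.35 (adjusted p = 0.0277). The ratio of Birc2 to Birc3, both per kilobase of exon, was 0.884, 1.84 and 0.874 in DMSO and 1.52, 2.52 and 2.48 with Cpd10. These ratios overlapped between groups through DMSO B, and the sources used here do not say how reads shared by the paralogues were counted.

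**Figure D3:**
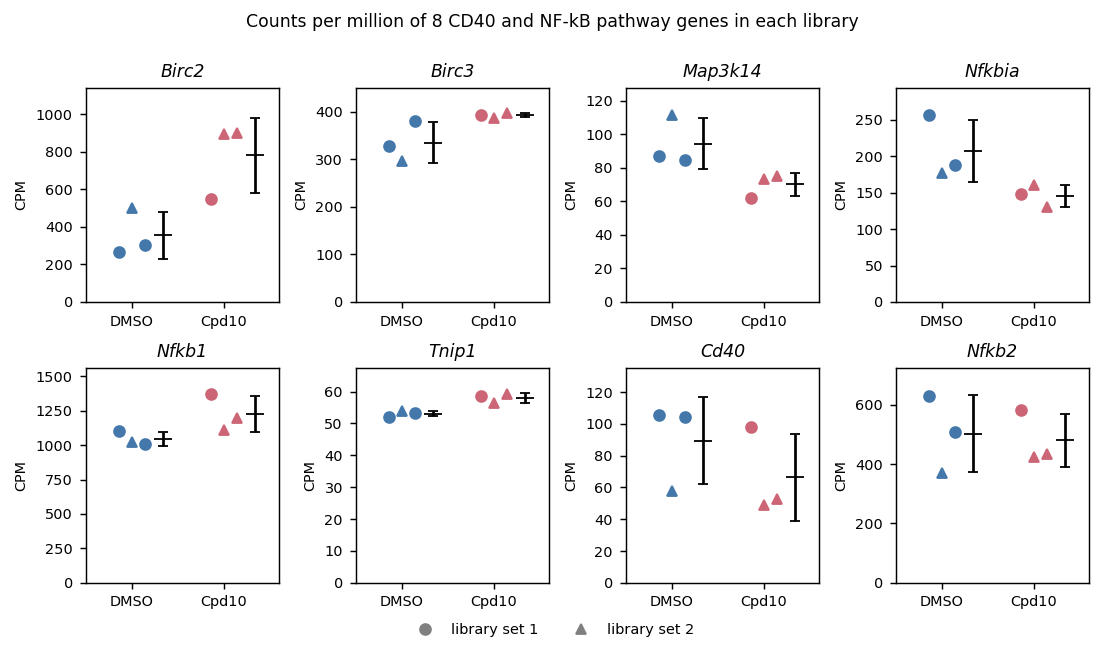
CPM of 8 pathway genes in each library, with DMSO in blue and Cpd10 in red, circles for set 1 and triangles for set 2; the black bar is the mean and SD of 3 libraries, and axes start at 0. Birc2 is at 266 to 499 CPM in DMSO and 548 to 901 with Cpd10, Map3k14 and Nfkbia are below their DMSO range with Cpd10, and Cd40 and Nfkb2 separate by shape (library set) and not by colour.

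The TRAF adaptors showed no called change. Traf2, the adaptor that brings the cIAP ligases to CD40, was at 43.7 to 50.8 CPM in DMSO and 47.3 to 49.6 with Cpd10 (log2 fold change 0.02, 95% interval -0.21 to 0.26). Traf3, the adaptor that presents NIK for ubiquitination, was at 66.2, 56.6 and 81.1 CPM in DMSO and 69.1, 58.0 and 56.4 with Cpd10 (-0.15, interval -0.51 to 0.20), with set 2 below set 1. Traf6, a ligase of the canonical branch, had a log2 fold change of -0.06, Traf1, an NF-kB induced TRAF, -0.02, Traf5 0.29, and Tank, a TRAF binding protein of the TBK1 kinases, 0.01. None of these 6 was called in any of the fits made, and the groups overlapped for each.

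Of the kinase genes among the members, only Map3k14, the gene of NIK, had groups that did not overlap. It was called by edgeR with the set as a term, and not by edgeR with group alone or by DESeq2. It lies on chromosome 11 (103219762 to 103267472, minus strand), and its CPM was 87.0, 112 and 84.6 in DMSO and 62.1, 73.4 and 75.0 with Cpd10. Every Cpd10 library was below every DMSO library, and the library furthest from the others was DMSO B. The log2 fold change was -0.43 (SE 0.14; 95% interval -0.75 to -0.11; edgeR adjusted p = 0.406) with group alone and -0.53 (SE 0.082; adjusted p = 0.00246) with the set as a term, with differences within the sets of -0.46 and -0.59. The call with the set as a term was lost without DMSO B (-0.47, edgeR adjusted p = 0.0738) and without Cpd10 A (-0.58, adjusted p = 0.0517). Its overlapping gene on the same strand, 1700028N14Rik, held 0 to 21 counts per library.

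The 3 subunits of the IKK complex were not called in any fit. Chuk, IKKα, the kinase downstream of NIK, was at 73.7 to 90.7 CPM in DMSO and 75.5 to 89.2 with Cpd10 (log2 fold change -0.05). Ikbkb, the catalytic subunit of the canonical branch, was at 166, 207 and 162 CPM in DMSO and 170, 238 and 253 with Cpd10 (0.31, edgeR adjusted p = 0.733), with set 2 above set 1. Ikbkg, the scaffold NEMO, was at 66.6 to 67.6 CPM in DMSO and 66.5 to 73.4 with Cpd10 (0.07), but it overlaps G6pdx on the other strand, and the sources used here do not give the strand setting of the counting.

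Among the 5 NF-kB subunit genes only Nfkb1 had groups that did not overlap. Nfkb1 encodes the precursor of the canonical DNA binding subunit and was at 1105, 1023 and 1010 CPM in DMSO and 1372, 1113 and 1196 with Cpd10. Its log2 fold change was 0.23 (SE 0.13; edgeR adjusted p = 0.736), and 0.28 (adjusted p = 0.108) with the set as a term. Nfkb2, the substrate of the NIK branch, was at 629, 370 and 509 CPM in DMSO and 584, 423 and 434 with Cpd10 (-0.07, interval -0.57 to 0.43). In Nfkb2 the libraries of set 2, at 370 to 434 CPM, lay below those of set 1, at 509 to 629, and its overlapping gene on the other strand, Psd, followed the same order of sets with 2581 to 5943 counts. Rel, Rela and Relb had log2 fold changes of -0.12, -0.08 and -0.02, with intervals of -0.36 to 0.13, -0.32 to 0.15 and -0.45 to 0.41.

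Of the 5 IκB genes, 4 had fold changes below 0 and 0 were called by edgeR, with 1 at an unadjusted p under 0.05, Nfkbia; DESeq2 called none. Nfkbia (chromosome 12, 55489410 to 55492647, minus strand) encodes IκBα, the inhibitor that NF-kB itself induces and that carries both matches printed above. It was at 257, 178 and 188 CPM in DMSO and 148, 160 and 130 with Cpd10, so that every Cpd10 library was below every DMSO library. The log2 fold change was -0.51 (SE 0.16; 95% interval -0.87 to -0.14; edgeR adjusted p = 0.392), and -0.44 (adjusted p = 0.188) with the set as a term. Without DMSO A, the highest library, it was -0.32 (adjusted p = 0.831). Nfkbie, which encodes IκBε, was at 163, 79.1 and 141 CPM in DMSO and 109, 82.4 and 80.7 with Cpd10 (-0.50, adjusted p = 0.717), where the groups overlapped and set 2 lay below set 1. Nfkbib, IκBβ, had a log2 fold change of -0.13 but overlaps Sirt2 on the other strand, which held 2672 to 3860 counts per library against 1939 to 2847 for Nfkbib, Nfkbiz, the nuclear IκBζ, -0.32, and Bcl3, a nuclear IκB that pairs with NF-kB1 and NF-kB2 homodimers, 0.22.

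Nfkbia and Nfkb1 had fold changes of opposite sign, and neither gene overlapped between groups. Their ratio therefore could not overlap either, and its separation adds no result of its own. Per kilobase of exon, Nfkbia to Nfkb1 was 1.74, 1.30 and 1.40 in DMSO and 0.810, 1.08 and 0.814 with Cpd10. The mean ratio was 1.48 ± 0.230 (SD, n = 3) in DMSO and 0.90 ± 0.153 (n = 3) with Cpd10. The pair was chosen after the values of both genes were seen, so no test is given. The ratio of Nfkb2 to Nfkb1, on the same scale, overlapped, at 1.26 ± 0.278 and 1.02 ± 0.0852, as did that of Relb to Rela, at 0.380 ± 0.0769 and 0.397 ± 0.0204.

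The brakes and the target genes among the 33 showed no called change. Tnfaip3, the ubiquitin editor A20, was at 392, 274 and 286 CPM in DMSO and 325, 299 and 316 with Cpd10 (log2 fold change -0.02, interval -0.37 to 0.33). Tnip1, which binds A20, was at 52.1, 53.8 and 53.4 CPM in DMSO and 58.6, 56.4 and 59.4 with Cpd10. These groups did not overlap, yet the log2 fold change was 0.13 (edgeR adjusted p = 0.785). Cyld, a deubiquitinase that removes activating chains, gave -0.21 with set 2 below set 1. Icam1, the adhesion molecule, and Ebi3, a cytokine subunit that overlaps Gm16712 on the other strand (595 to 993 counts, against 2740 to 4619 for Ebi3), both gave -0.02, and Cflar, the caspase-8 inhibitor FLIP, gave -0.37 (adjusted p = 0.628), with 322, 204 and 247 CPM in DMSO and 208, 182 and 207 with Cpd10.

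**Figure D4:**
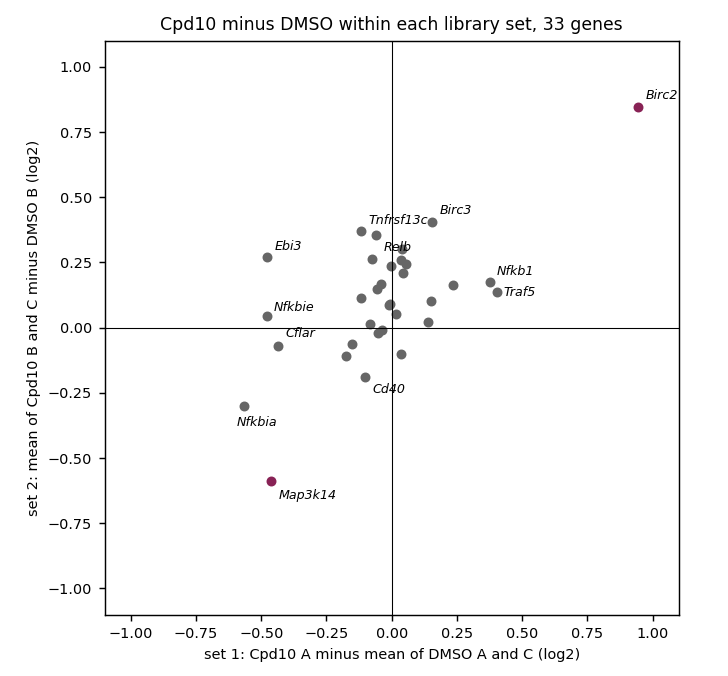
Difference between Cpd10 and DMSO within each library set for the 33 genes, in log2(CPM + 0.5): set 1 (Cpd10 A minus the mean of DMSO A and C) on the horizontal axis and set 2 (the mean of Cpd10 B and C minus DMSO B) on the vertical axis, with the genes called in the fit with the set as a term in purple. Birc2 lies at 0.94 and 0.85, apart from the other genes, Map3k14 at -0.46 and -0.59 and Nfkbia at -0.57 and -0.30; each axis holds a group of 1 library, so it has no error of its own.

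The library sets did not overlap in 15 of 33 genes (45.5%), against 35.9% of all genes, while the treatment groups did not overlap in the 6 named above. Set 2 was the lower one in 12 of these, Cd40, Tnfrsf17, Traf3, Chuk, Nfkb2, Rela, Relb, Nfkbie, Nfkbiz, Cyld, Icam1 and Cflar (36.4% of members, 17.1% of all genes), and the higher one in 3, Tnfrsf13c, Fas and Ikbkb (9.09%, against 18.8%). For Cd40 the mean log2(CPM + 0.5) of set 2 minus that of set 1 was -0.95, for Nfkbiz -0.87, for Nfkbie -0.74 and for Nfkb2 -0.49. These are plain differences of means, not adjusted for treatment. No p is given, since the sets were read from the same libraries, and the sources used here do not say what the sets stand for. Set 2 holds 1 of 3 DMSO and 2 of 3 Cpd10 libraries, so the sets and the treatment groups are unbalanced against each other.

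**Figure D5:**
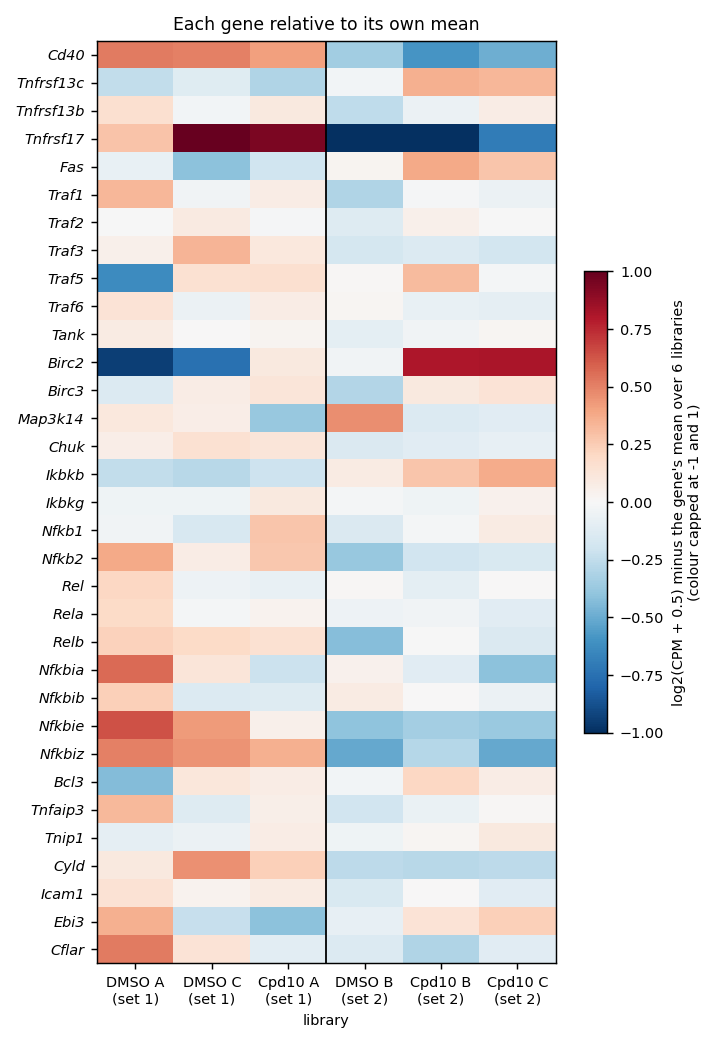
Level of each of the 33 genes in each library relative to that gene's mean over 6 libraries, in log2(CPM + 0.5), red above and blue below, capped at -1 and 1, with set 1 to the left of the black line and set 2 to the right. Cd40, Nfkbie and Nfkbiz change colour at the line, as does Nfkb2, whereas Map3k14 and Nfkbia are bluer in Cpd10 libraries on both sides and Birc2 is redder.

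Of 36 further genes of the NF-kB activation machinery edgeR called 0 with group alone, with a median log2 fold change of -0.05. At an unadjusted p under 0.05 it gave 3, against 8.39% of all genes. With the set as a term edgeR called 2, Malt1 higher and N4bp1 lower, against 3.96% of all genes. DESeq2 called 1, Malt1, against 2.00% of all genes. The gene with the smallest p was Malt1, the protease of the antigen receptor branch, at 109, 77.9 and 118 CPM in DMSO and 534, 190 and 250 with Cpd10, a log2 difference of 1.68 (SE 0.40; adjusted p = 0.259 in edgeR), or 1.87 (adjusted p = 0.0117) with the set as a term. All Cpd10 libraries exceeded all DMSO libraries, with Cpd10 A far above the others. Next was Traf3ip3, a TRAF3 binding protein, at -0.22 (edgeR adjusted p = 0.541). N4bp1, an inhibitor of NF-kB activation, was at 83.8, 93.3 and 78.8 CPM in DMSO and 52.5, 72.2 and 78.3 with Cpd10, with no overlap by a narrow margin (-0.33, edgeR adjusted p = 0.651; -0.47, adjusted p = 0.0169 with the set).

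Among CD40 and NF-kB target genes, 46 of 48 were tested and edgeR called 0, with 13 at an unadjusted p under 0.05, 2 higher and 11 lower, and a median log2 fold change of -0.11. Over all genes that threshold was passed by 8.39%, 585 higher and 685 lower. With the set as a term 4 target genes were called higher and 4 lower, against 3.96% of all genes, 351 higher and 248 lower. DESeq2 called Pim2 and Sdc4 higher and Ltb and Ccr7 lower, and it called 2.00% of all genes. The 2 with the smallest p were Pim2, a survival kinase, at 0.77 (edgeR adjusted p = 0.126), and Sdc4, a cell surface proteoglycan, at 0.79 (adjusted p = 0.126). Pim2 was at 172, 256 and 190 CPM in DMSO and 326, 358 and 372 with Cpd10, and Sdc4 at 380, 441 and 431 in DMSO and 565, 802 and 802 with Cpd10. Both had groups that did not overlap, and both were called with the set as a term, Pim2 at 0.68 (edgeR adjusted p = 0.00102) and Sdc4 at 0.67 (adjusted p = 0.00209).

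In the MAP kinase branch, which CD40 also engages through TRAFs, edgeR called 1 of 25 genes, Dusp4, a phosphatase that inactivates MAP kinases. Over all genes edgeR called 0.370% with group alone and 3.96% with the set as a term, and DESeq2 called 2.00%. Dusp4 was at 148, 156 and 118 CPM in DMSO and 331, 367 and 384 with Cpd10, a log2 difference of 1.36 (SE 0.13; adjusted p = 0.0145 in edgeR), with no overlap. DESeq2, and edgeR with the set as a term, also called Jun, an AP-1 subunit, lower, at 173, 111 and 124 CPM in DMSO and 86.2, 81.1 and 78.1 with Cpd10 (-0.73, edgeR adjusted p = 0.167; -0.63, adjusted p = 0.0326 with the set). Of 17 tested TNF receptor genes outside the 33, 0 were called by edgeR and by DESeq2, and 0 had an unadjusted p under 0.05; the smallest p values were those of Tnfrsf23 and Tnfrsf12a, both present below 4 CPM. Of 11 tested TNF superfamily ligands edgeR called 0, with 3 at an unadjusted p under 0.05, against 8.39% of all genes. DESeq2 called Ltb lower and Tnfsf8 higher, against 2.00% of all genes called. Ltb, lymphotoxin β, was at 125, 94.5 and 158 CPM in DMSO and 64.0, 72.8 and 69.5 with Cpd10, with no overlap. Its log2 fold change was -0.87 (edgeR adjusted p = 0.130), and -0.78 (edgeR adjusted p = 0.103) with the set as a term, so edgeR called it in neither fit. Tnfsf8, the CD30 ligand, was at 3.38, 8.75 and 2.77 CPM in DMSO and 6.12, 22.5 and 19.5 with Cpd10, and its groups overlapped. Its log2 fold change was 1.69 (edgeR adjusted p = 0.510), or 1.13 (edgeR adjusted p = 0.00368) with the set as a term. Cd40lg, the gene of the natural CD40 ligand, had 0 counts in every library.

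The 15 members with a κB match in their promoter window had a median log2 fold change of -0.02, with 6 above 0 and 9 below, and 3 whose groups did not overlap. The 13 with a window and no match had a median of -0.05, with 5 above 0 and 8 below, and 2 whose groups did not overlap. Of all genes tested, 14.6% had groups that did not overlap. Of the 2 genes called with the set as a term, Birc2 held a match and Map3k14 did not.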

How the data were processed

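The authors deposited raw read counts per gene for the 6 libraries in 1 table. Per the submitters' processing notes, STAR 2.7.10a, featureCounts 2.0.6 and DESeq2 were used with mouse build GRCm38 (mm10). Neither the strand setting nor the treatment of reads shared by gene copies was given in the sources used here, although the kit was directional per the labels' protocols. Symbols, positions and exon lengths came from GENCODE M21, in which 54809 of 54838 identifiers were found and 29 were not. Counts were tested with edgeR 4.0.16 (TMM scaling, filterByExpr, robust quasi-likelihood, group as the only term) in R 4.3.3, with Benjamini-Hochberg adjustment over 15136 genes and a threshold of 0.05. CPM values use TMM-scaled totals, and 95% intervals use the SE and the moderated degrees of freedom of that fit. The fit with group alone was also run on simulated counts, which held no library sets, and the fit with the set as a term was not. Alternatives were DESeq2 1.42.0, its size factors in edgeR, no filter, a replicate block, each library left out, and, added after seeing the data, the library set as a term. Replicates of a group differed by more than counting noise (chi-square per degree of freedom 12.3 to 176), so none was counted as a duplicate. All 33 genes are named; outside them, each list's genes called with group alone, or else the 2 with the smallest p, are named, and other names were chosen after their values were seen. The members and lists were chosen with earlier results of these data known.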

Additional observations from a re-analysis of the deposited data

How the results depend on the processing

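Over all genes edgeR called 56 with group alone, 194 without the filter on low counts, 356 by DESeq2 and 599 with the library set as a term; leaving out 1 library gave 0 (without Cpd10 C) to 100 (without DMSO B), and the set term with 1 library left out gave 907, 437 and 622 (without DMSO A, B and C) and 130, 343 and 225 (without Cpd10 A, B and C). Of the 33 pathway genes edgeR called 0 with group alone, with DESeq2's size factors, without the filter and with the replicate block. It also called 0 without each library in turn. DESeq2, likewise with group alone, called 1. With the set term edgeR called 2. Leaving out 1 library from that fit gave 2, 1 and 3 without DMSO A, B and C and 1, 2 and 2 without Cpd10 A, B and C. Without DMSO B, or without Cpd10 A, 1 set holds a single treatment, so the comparison comes from the other set alone. The fit with group alone did not use letters as pairs. Deviations of the same letter correlated at 0.31, 0.43 and -0.31, and not every library correlated best with its own letter. All correlations were above 0 within a set and below 0 across sets, so they cannot show what libraries of a letter share. The replicate block called 49 genes and turned the sign of Traf1 (to 0.00085), Relb (0.0026) and Tnfaip3 (0.0014). Of the 33 genes 21 kept their sign in all 11 alternatives to edgeR with group alone, and 12 did not. The set-term fits with 1 library left out were not among those 11. None of the 12 genes with a turned sign was called in any setting. With the set term the log2 fold change turned to 0.43 for Tnfrsf17, 0.089 for Traf1, 0.034 for Chuk, 0.12 for Nfkb2, 0.15 for Relb, 0.055 for Tnfaip3 and 0.043 for Icam1. Without 1 library it ran from -0.027 to 0.18 for Tnfrsf13b, -3.65 to 0.52 for Tnfrsf17, -0.16 to 0.17 for Traf1, -0.032 to 0.079 for Traf2, -0.036 to 0.057 for Tank, -0.13 to 0.020 for Chuk, -0.24 to 0.13 for Nfkb2, -0.13 to 0.0042 for Rela, -0.21 to 0.094 for Relb, -0.11 to 0.17 for Tnfaip3, -0.099 to 0.050 for Icam1 and -0.15 to 0.18 for Ebi3; the cause of these turns was not tested. Tnfrsf17, at under 3 CPM in every library, is limited by its low counts.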

Other observations

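Several CD40 and NF-kB target genes that were not described above had lower values with Cpd10 in every library. Of the 46 tested, 10 had Cpd10 values all below DMSO and 3 all above, against 7.32% and 7.31% of all genes. The list was made with earlier results of these data known, and the genes named here were chosen after their values were seen. None of these was called by edgeR with group alone, and DESeq2 called Ccr7 lower. Irf8, a transcription factor of B cell and myeloid development, was at 520, 433 and 513 CPM in DMSO and 364, 354 and 343 with Cpd10 (log2 fold change -0.47, edgeR adjusted p = 0.208; -0.41, adjusted p = 0.0136 with the library set as a term). Cd44, the hyaluronan receptor of activated lymphocytes, was at 1123, 981 and 847 CPM in DMSO and 545, 744 and 722 with Cpd10 (-0.55, edgeR adjusted p = 0.372; -0.64, adjusted p = 0.0338 with the set). Slamf1, a costimulatory receptor, was at 23.2, 24.1 and 20.4 CPM in DMSO and 14.3, 17.9 and 17.6 with Cpd10 (-0.45, edgeR adjusted p = 0.415; -0.53, adjusted p = 0.0401 with the set). Ccr7, the chemokine receptor that draws B cells towards the T cell zone, was at 165, 101 and 105 CPM in DMSO and 41.8, 75.3 and 54.8 with Cpd10 (-1.11, edgeR adjusted p = 0.227; -1.16, adjusted p = 0.314 with the set).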
